A study of Vitis vinifera with 6 samples.

Results

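Young leaves of the grapevine *Vitis vinifera* cv Shiraz were profiled on 6 one-colour microarrays, 3 of plants that overexpress the transcription factor gene *VviNAC33* (OXNAC33) and 3 of control plants. The values below follow 4 genes: the chlorophyll breakdown gene *SGR1* (VIT_02s0025g04660), the chloroplast ATP synthase gene *ATPC1* (VIT_19s0090g00480), and the autophagy genes *ATG8f* (VIT_02s0154g00390) and *ATG8d* (VIT_12s0059g00660). They were taken by these 4 identifiers, each of which named a single probe among the 34369 on the array. From these same arrays the study had reported *ATPC1* as lower and *ATG8f* and *ATG8d* as higher in OXNAC33 leaves. By quantitative PCR in leaves of a single OXNAC33 line, the study also reported *SGR1* and *ATG8f* as strongly higher and *ATPC1* as strongly lower. In OXNAC33, *VviNAC33* was driven by the CaMV 35S promoter, which is active in most plant tissues, and independent transgenic lines served as the replicates according to the methods. The control plants carried a vector with a fluorescent reporter gene, and all plants came from one Shiraz clone. According to the methods, the overexpression vector also held a cassette for a fluorescent reporter. The labels do not say which control plants gave each control array. The labels place the collection of the leaves at the onset of the phenotype, whereas the text of the study places it before the phenotype was seen, and no other treatment is given in the labels for either group. The p-values below measure the spread between these arrays, and the number of arrays limits the precision. A leaf holds several cell types, and in such bulk samples fewer cells of a type and less RNA per cell cannot be told apart.

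When a leaf ages, its chlorophyll is taken apart in a fixed sequence of enzyme steps, the photosynthetic complexes of the thylakoid membrane are dismantled, and cell material, pieces of chloroplast included, is carried to the vacuole by autophagy. STAY-GREEN proteins such as SGR1 remove the magnesium ion from chlorophyll a, as known from *Arabidopsis thaliana*. ATPC1 is the gamma subunit, the rotating shaft, of the chloroplast ATP synthase that makes ATP during photosynthesis, and ATG8 proteins are ubiquitin-like proteins that become bound to lipid in the membrane of the forming autophagosome and recruit cargo to it.

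*ATPC1* was about 3 times lower in OXNAC33 leaves than in control leaves, with a fold of 0.302, and it was the only one of the 4 genes to pass the test (limma, adjusted p = 0.0435). *ATG8f* and *ATG8d* were 1.95-fold and 1.73-fold higher in OXNAC33 leaves, without overlap between the groups, but missed the threshold (limma, adjusted p = 0.0512 and 0.0761). *SGR1* overlapped between the groups and missed the threshold, at a fold of 1.23 (limma, adjusted p = 0.446). With 1 of 4 members called, the background was that 5.02% of all 23907 probes tested were called, 1.69% as higher and 3.33% as lower in OXNAC33. As *ATPC1*, *ATG8f* and *ATG8d* had been named from these arrays, the count among the 4 is no independent result. Non-overlapping groups were common on these arrays, at 35.5% of the probes tested, with 15.1% higher and 20.4% lower in OXNAC33, so that the absence of overlap alone does not set a gene apart here. Likewise, 27.3% of the probes tested had an unadjusted p under 0.05, against which the counts at that level in the gene lists below are to be read.

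On each array, between 69.4% and 74.9% of the probes were well above background. Leaf genes served as a check of the tissue. The light-harvesting gene *LHCB3*, photosystem I subunit O and PsbP were well above background on all 6 arrays, whereas of 2 chloroplast carbonic anhydrase probes one was well above background on 0 arrays. The signal of *VviNAC33* was -0.54, -3.89 and -0.998 in OXNAC33 replicates 1, 2 and 3, against -5.22, -4.14 and -4.01 in control replicates 1, 2 and 3 (log2 units, with 0 at each array's 75th percentile). The array labelled OXNAC33 replicate 2 thus lay close to the controls, and the gene missed the threshold (change 2.65, SE 0.88, limma, adjusted p = 0.116). The changes of the 4 genes are therefore also given without that array, as are the lists whose calls differ without it. The header scan times formed 2 sessions, the first with OXNAC33 replicates 1 and 2 and control replicate 1, the second with OXNAC33 replicate 3 and control replicates 2 and 3.

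**Figure D1:**
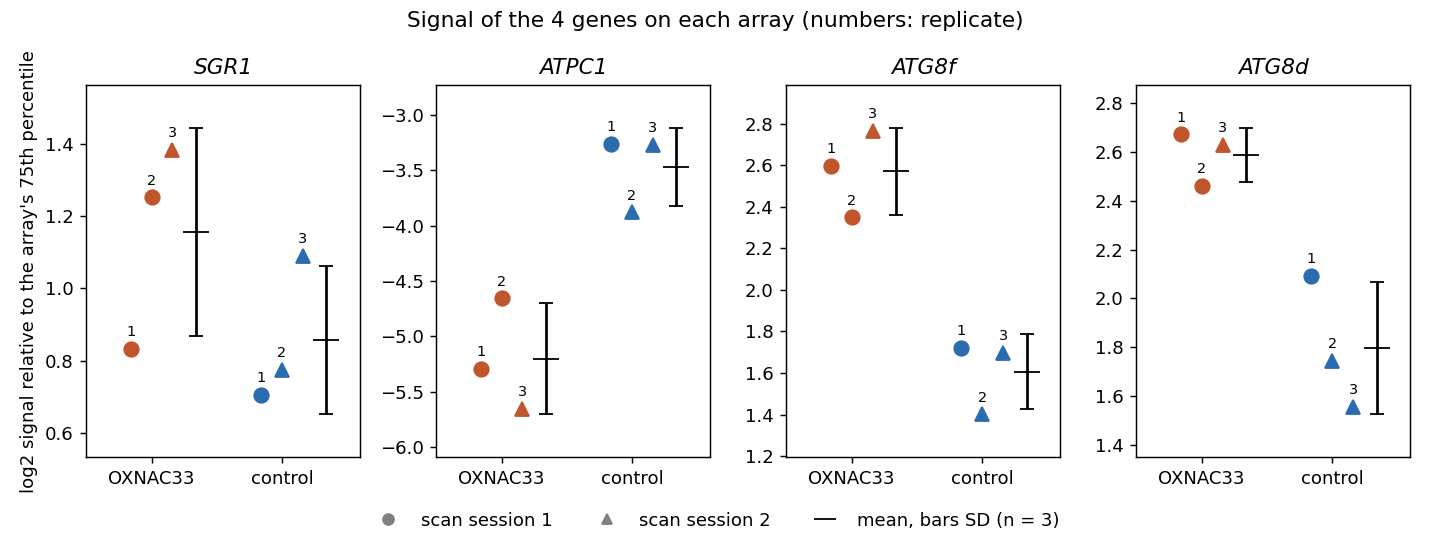
Log2 signal of the 4 genes relative to the 75th percentile of each array (vertical axis, its range set per panel), with OXNAC33 arrays left and control arrays right. Points are single arrays with their replicate number, circles and triangles mark scan sessions 1 and 2, and black bars give the mean and SD (n = 3). The groups overlap only for *SGR1*, where OXNAC33 replicate 1 at 0.83 lies below control replicate 3 at 1.09.

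The first question was whether the gene that starts chlorophyll breakdown differed between the leaves. The log2 signal of *SGR1* was 0.83, 1.25 and 1.38 in OXNAC33 replicates 1, 2 and 3, against 0.70, 0.77 and 1.09 in control replicates 1, 2 and 3. OXNAC33 replicates 2 and 3 were above every control array, while OXNAC33 replicate 1 lay among the controls. The means were 1.16 ± 0.29 in OXNAC33 and 0.86 ± 0.21 in control leaves (SD, n = 3 each). The change was 0.30 on the log2 scale (SE 0.23), with a 95% interval of -0.25 to 0.85 (limma, adjusted p = 0.446). This interval holds both no change and one nearly as large as that of *ATG8f*, so the arrays do not show that *SGR1* stayed the same. Of all probes tested, 53% had a smaller p-value than *SGR1*. With one array left out the change was between 0.19, without OXNAC33 replicate 3, and 0.46, without OXNAC33 replicate 1, so that the size of the change rested on these arrays. Leaving out OXNAC33 replicate 2 gave 0.25 (limma, adjusted p = 0.584).

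Pheophorbide a oxygenase (VIT_06s0061g00790), which opens the chlorophyll ring further down the same pathway, was the other breakdown gene listed. Its log2 signal was 1.66, 1.97 and 2.26 in OXNAC33 replicates 1, 2 and 3, against 1.57, 1.43 and 0.94 in control replicates 1, 2 and 3. The OXNAC33 arrays lay above all controls in the same order as for *SGR1*, but OXNAC33 replicate 1 was only just above control replicate 1. The change was 0.65 (SE 0.26, limma, adjusted p = 0.170), and it did not pass the test.

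The 7 genes listed for chlorophyll synthesis had 0 calls in either direction with limma, and 1 of them had an unadjusted p under 0.05, a share below the 27.3% of all probes. In OXNAC33, 1 of the 7 lay wholly higher and 2 wholly lower, beside 15.1% and 20.4% of all probes tested. The median change of the list was -0.09, beside -0.01 over all probes tested. The sign of this median depended on the scaling, at 0.03 with median scaling and 0.10 with spike-in scaling. The range ran from -1.10 for porphobilinogen deaminase, an early step of tetrapyrrole synthesis (limma, adjusted p = 0.151), to 0.88 for glutamyl-tRNA reductase 1, which starts that synthesis (limma, adjusted p = 0.222). For porphobilinogen deaminase, control replicate 1 was dropped by an outlier flag, so its control mean rests on 2 arrays.

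The subunit XANTHA-F of magnesium chelatase (VIT_08s0007g08540), the enzyme that puts magnesium into the ring that SGR1 later strips of it, was a separate case because it had been named by the study on these same arrays. It is not independent evidence of a direction. Its log2 signal was -6.52, -5.31 and -6.69 in OXNAC33 replicates 1, 2 and 3, against -3.73, -3.67 and -4.28 in control replicates 1, 2 and 3. In OXNAC33 it fell by 2.28 on the log2 scale (SE 0.41, limma, adjusted p = 0.0406). The spot was dim in OXNAC33, well above background on 2 of 3 arrays. It thus entered the test only through the control group, where its signal was higher. A filter that required all arrays to be well above background left the gene out, so its call depends on that entry. With one array left out the call held only without OXNAC33 replicate 2 (limma, adjusted p = 0.0196), and the adjusted p was otherwise between 0.0847 and 0.115. In those other cases only 0 or 1 of all probes tested were called, so the loss is not particular to this gene. With normexp background correction the change was -1.29 (limma, adjusted p = 0.111). Another subunit of the same enzyme, chlD (VIT_06s0061g00010), had a change of 0.02 (SE 0.21).

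The second question concerned the chloroplast ATP synthase. The log2 signal of *ATPC1* was -5.29, -4.66 and -5.65 in OXNAC33 replicates 1, 2 and 3, against -3.26, -3.88 and -3.27 in control replicates 1, 2 and 3. Every OXNAC33 array lay below every control array, with OXNAC33 replicate 2 nearest to the controls and control replicate 2 nearest to OXNAC33. The means were -5.20 ± 0.50 in OXNAC33 and -3.47 ± 0.35 in control leaves (SD, n = 3 each). *ATPC1* fell by 1.73 on the log2 scale (SE 0.32), with a 95% interval of -2.50 to -0.96 (limma, adjusted p = 0.0435). Only 3.57% of the probes tested had a lower change and 2.91% a smaller p-value. The exact permutation test over the 6 arrays gave p = 0.1, two-sided, the smallest that 3 arrays against 3 allow.

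The *ATPC1* spot was dim, which bears on its fold. Its median intensity before background correction was 55, 71 and 64 in OXNAC33 replicates 1, 2 and 3, against 120, 81 and 141.5 in control replicates 1, 2 and 3. The local background beside the spot was 24 to 27 on the OXNAC33 arrays and 21 to 26 on the control arrays. The OXNAC33 spots were thus between 2 and 3 times their surroundings, and all 6 spots were called well above background by the scanner software. Normexp background correction with an offset of 50 moves dim spots towards one another. With it the change of *ATPC1* was -1.14 and no longer passed (limma, adjusted p = 0.140). Under that setting 0 of all probes tested were called, so the lost call alone cannot tell this spot from others. The size of the change did differ between the genes. That of *ATPC1* shrank from -1.73, and that of *SGR1* went from 0.30 to 0.27. Those of *ATG8f* and *ATG8d* did not shrink, at 0.99986 and 0.847 against 0.963 and 0.792 in the main setting. With normexp both had a lower adjusted p than *ATPC1* (limma, 0.0739 and 0.0857).

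The call for *ATPC1* was close to the threshold. It held in 7 of 13 other settings that used all arrays, with changes between -1.89 and -1.14 and adjusted p between 0.0356 and 0.140 (limma or the methods' t-test). With one array left out the change was between -2.0 and -1.5. The call held only without OXNAC33 replicate 2 (limma, adjusted p = 0.0233). With any other array left out the adjusted p was between 0.0888 and 0.137 (limma). In those other cases only 0 or 1 of all probes tested were called, so the loss is not particular to *ATPC1*. The direction was the same within both scan sessions, at -1.71 in the first and -2.07 in the second, and as a block the session left the adjusted p at 0.0546.

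Other ATP synthase genes had smaller differences. Of 6 listed genes, 5 were tested with 0 calls by limma, 2 had an unadjusted p under 0.05, and the median change was -0.26. Without OXNAC33 replicate 2 there was 1 call, ATP synthase protein I (VIT_12s0028g02170), higher by 0.97 (limma, adjusted p = 0.0479), which with all arrays had a change of 0.72 (limma, adjusted p = 0.152). The CF1 beta subunit of the chloroplast enzyme was well above background on 1 of 3 OXNAC33 and 1 of 3 control arrays, and was not tested. The CF1 epsilon subunit had the highest change of the list at 1.21 (SE 1.19, limma, adjusted p = 0.555), with log2 signals of 3.92, 2.96 and 0.18 in OXNAC33 replicates 1, 2 and 3 against 3.17, 0.33 and -0.07 in control replicates 1, 2 and 3. Its highest values on both sides came from the first scan session, so that no direction can be read for it. The counterpart of *ATPC1* in the mitochondrial enzyme, the gamma chain VIT_17s0000g07300, had a change of -0.34 (SE 0.18, limma, adjusted p = 0.274), with all OXNAC33 arrays below the controls. The lowest change was -0.51, of the mitochondrial beta chain VIT_17s0000g02900 (SE 0.19, limma, adjusted p = 0.147). The 3 mitochondrial ATP synthase genes that the study had named on these arrays had changes of -0.57 for the delta' chain, -0.53 for the g subunit and -0.70 for an assembly factor of F1, none of which passed.

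**Figure D2:**
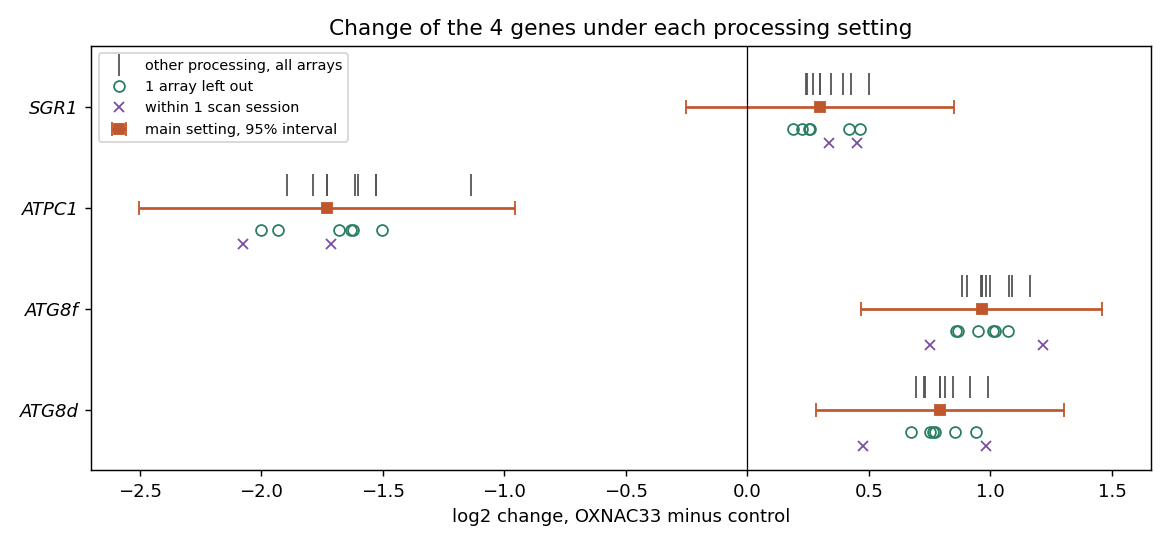
Log2 change of the 4 genes, OXNAC33 minus control (horizontal axis). Squares with bars give the main value and its 95% interval, grey ticks the other processing settings that used all arrays, green circles the values with one array left out, and purple crosses the values within one scan session. Every value of *ATPC1* lies below 0 and every value of *ATG8f* and *ATG8d* above 0, whereas the interval of *SGR1* runs from -0.25 to 0.85.

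The third question was whether autophagy genes differed. The log2 signal of *ATG8f* was 2.60, 2.35 and 2.76 in OXNAC33 replicates 1, 2 and 3, against 1.72, 1.40 and 1.70 in control replicates 1, 2 and 3. The lowest OXNAC33 array, replicate 2, still lay well above the highest control, replicate 1. The means were 2.57 ± 0.21 in OXNAC33 and 1.61 ± 0.18 in control leaves (SD, n = 3 each). The change was 0.96 (SE 0.21), with a 95% interval of 0.47 to 1.46 and an adjusted p of 0.0512 (limma). The exact permutation test gave p = 0.1, two-sided, the smallest possible. Of all probes tested, 91.8% had a lower change and 5.37% a smaller p-value. Without OXNAC33 replicate 2 the change was 1.07 and passed (limma, adjusted p = 0.0387). With any other array left out it did not, with adjusted p up to 0.157 (limma), but then only 0 or 1 of all probes tested were called. Within the scan sessions the change was 0.75 in the first and 1.22 in the second.

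The log2 signal of *ATG8d* was 2.67, 2.46 and 2.63 in OXNAC33 replicates 1, 2 and 3, against 2.09, 1.74 and 1.55 in control replicates 1, 2 and 3. The groups did not overlap, and the spread was wider among the control arrays, whose mean was 1.80 ± 0.27, than among the OXNAC33 arrays, whose mean was 2.59 ± 0.11 (SD, n = 3 each). The change was 0.79 (SE 0.21), with a 95% interval of 0.28 to 1.30 and an adjusted p of 0.0761 (limma). The exact permutation test gave p = 0.1, two-sided. Of all probes tested, 88.7% had a lower change and 10.9% a smaller p-value. Without OXNAC33 replicate 2 the change was 0.85 and still missed the threshold (limma, adjusted p = 0.0797). It also missed it with any other array left out, with adjusted p up to 0.22 (limma), where only 0 or 1 of all probes tested were called. Within the scan sessions the change was 0.48 in the first, where control replicate 1 was the highest control, and 0.98 in the second.

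The autophagy list held 7 further genes, of which limma called 0, with 1 at an unadjusted p under 0.05. The median change was 0.30, beside -0.01 over all probes tested. Of the 7 changes 6 were above 0, beside 11770 of all 23907 probes tested. In OXNAC33, 3 genes lay wholly higher and 0 wholly lower, beside 15.1% and 20.4% of all probes tested. The range ran from -0.05 for *ATG10*, an enzyme of the conjugation system that joins ATG12 to ATG5, to 1.24 for a second gene annotated as *ATG8f* (VIT_15s0048g00660). That second gene had log2 signals of 2.78, 1.87 and 2.87 in OXNAC33 replicates 1, 2 and 3, against 1.28, 1.37 and 1.15 in control replicates 1, 2 and 3. Its OXNAC33 arrays were all higher, replicate 2 by much less than the others. The change of 1.24 (SE 0.30) was larger than that of either *ATG8f* or *ATG8d* above but did not pass (limma, adjusted p = 0.0631). It passed with trend and robust (limma, adjusted p = 0.0440), with array weights (0.0459) and without OXNAC33 replicate 2 (change 1.56, 0.0202), the only call of the list in each of these.

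Counting *ATG8f*, *ATG8d*, this second *ATG8f*, *ATG8i* (VIT_07s0005g02200, change 0.47) and *ATG8C* (VIT_19s0090g00580, change 0.28), 5 genes of the ATG8 family were measured, and all 5 changes were above 0. Of all 23907 probes tested, 11770 had a change above 0. *ATG8f* and *ATG8d* had been named as higher by the study on these same arrays, so they are not independent evidence of a direction. The count of 5 includes them. The 5 changes stayed above 0 under each of 6 other scalings or background corrections, the lowest being 0.18 for one gene with quantile scaling. In OXNAC33 replicate 1 all 5 genes were above the highest control, and in OXNAC33 replicates 2 and 3 there were 4 of 5 above it. The exception in both was *ATG8C*, at 2.32 and 2.36 against control replicate 1 at 2.46. Of all probes tested, 15.1% had every OXNAC33 array above every control. The share of all probes above the highest control on a single array was not computed, so these counts do not set the family apart. None of the 5 passed the test in the main setting. Members of this family are alike in sequence, and whether their probes bind one another's RNA was not tested.

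Genes of other autophagy steps had changes between -0.05 and 0.72. *ATG7*, the E1-like enzyme that activates ATG8, had a change of 0.41 (SE 0.20, limma, adjusted p = 0.241), with the groups apart. Of 2 genes annotated as *ATG18d*, whose products bind a phosphoinositide on the growing membrane, VIT_14s0060g02380 had a change of 0.22 with overlapping groups. The other, VIT_07s0104g01790, named by the study on these arrays, had a change of 0.72 (SE 0.20, limma, adjusted p = 0.0764). A regulatory subunit of the kinase that makes this phosphoinositide (VIT_11s0016g03000) had a change of 0.30, with overlap.

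**Figure D3:**
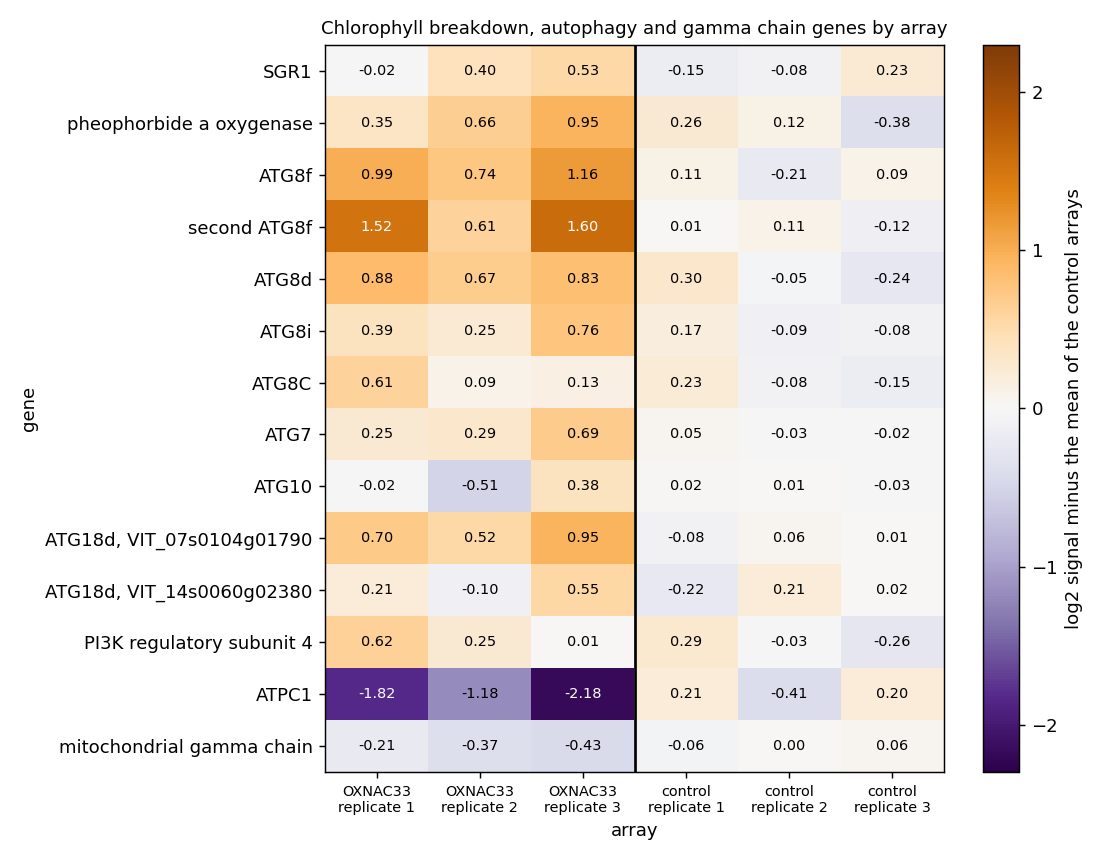
Log2 signal minus the mean of the 3 control arrays (colour scale and printed values) for genes of chlorophyll breakdown, autophagy and the ATP synthase gamma chains (rows) on each array (columns, OXNAC33 left of the black line). The ATG8 genes are above the control mean on all 3 OXNAC33 arrays, by 0.09 for *ATG8C* in replicate 2 up to 1.6 for the second *ATG8f* in replicate 3, and *ATPC1* is 1.18 to 2.18 below it.

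Beside these lists, genes of the photosystems and light harvesting showed no common direction. Of 19 genes 16 were tested, with 0 calls by limma, 1 at an unadjusted p under 0.05, 9 changes above and 7 below 0, and a median of 0.16, which ran from -0.02 to 0.36 over the other settings. The highest was *APE1*, named for the acclimation of photosynthesis to the environment, at 1.41 (SE 0.35, limma, adjusted p = 0.0644). It was the 1 call of the list with trend and robust, array weights, spike-in scaling and without OXNAC33 replicate 2 (limma, adjusted p between 0.0202 and 0.0480). The lowest was one of 2 *LHCB3* genes, a light-harvesting protein of photosystem II, at -0.52 (SE 0.52), with control replicate 1 dropped by an outlier flag. Genes for thylakoid lumen proteins and chloroplast positioning had a median of 0.27 over 5 genes and 0 calls by limma, with 1 at an unadjusted p under 0.05, and ran from -0.03 to 0.91 for *CHUP1* (VIT_01s0011g02860), which holds chloroplasts in place. In that *CHUP1* gene, OXNAC33 replicate 1 was dropped by an outlier flag, so its OXNAC33 mean rests on 2 arrays. Of 7 genes annotated to senescence 6 were tested, with a median of -0.04, which ran from -0.45 to 0.16 over the other settings. At an unadjusted p under 0.05 (limma) there were 1 higher and 3 lower in OXNAC33, beside 27.3% of all probes tested. In OXNAC33 the gene VIT_13s0067g01180, annotated as leaf senescence related, fell by 1.01 on the log2 scale (SE 0.21, limma, adjusted p = 0.0484). The call was lost in 7 of 13 other settings with all arrays, and the gene was also among those the study had drawn from these arrays. The extremes were *YLS7* at -1.08 (limma, adjusted p = 0.0534), which passed in 4 other settings and without OXNAC33 replicate 2 (adjusted p = 0.0358), and the leaf senescence related protein-like gene VIT_04s0044g01060 at 1.24 (limma, adjusted p = 0.279).

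**Figure D4:**
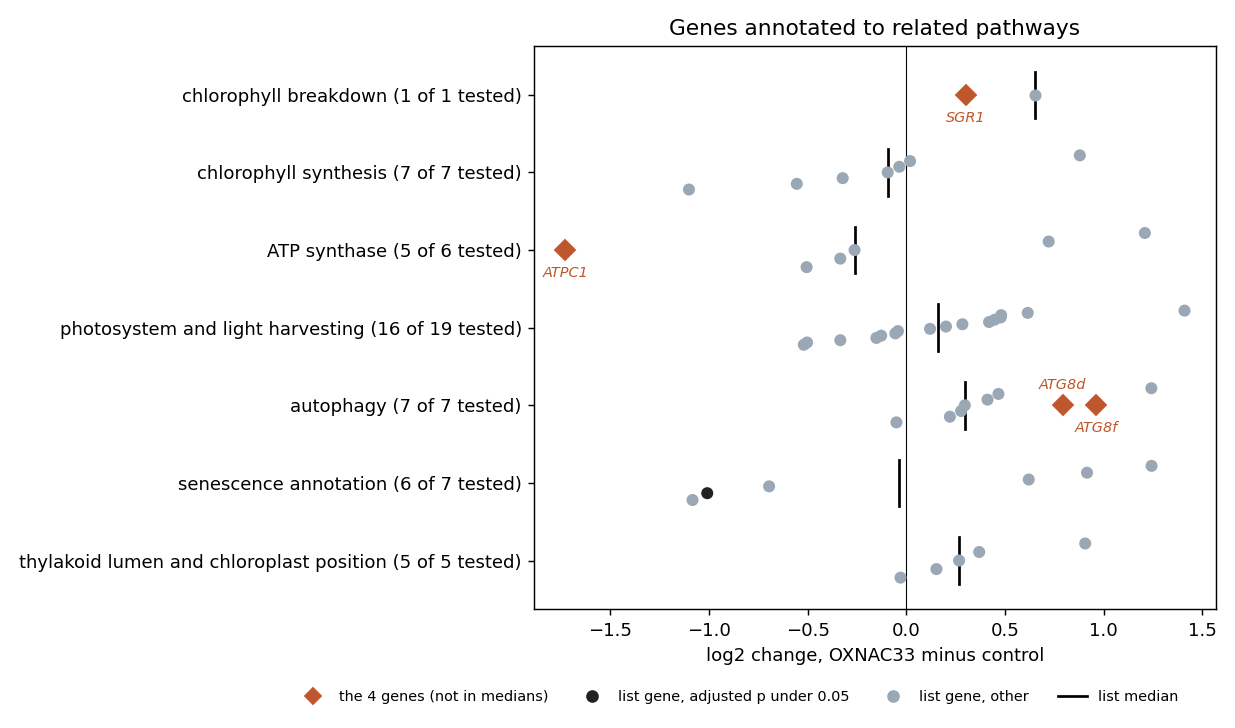
Log2 change, OXNAC33 minus control (horizontal axis), of the genes tested in each pathway list (rows). Orange diamonds are *SGR1*, *ATPC1*, *ATG8f* and *ATG8d*, black points passed the test (limma, adjusted p under 0.05), grey points did not, and vertical bars mark the list medians, which leave the 4 genes out. *ATPC1* at -1.73 lies below the rest of its list, and the autophagy median is 0.30.

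The changes of the 4 genes were also set against one another within each array, which removes the scaling between arrays. The change of *ATPC1* lay 2.03 below that of *SGR1*, 2.69 below that of *ATG8f* and 2.52 below that of *ATG8d* on the log2 scale. For each of these 3 pairs the within-array differences of the OXNAC33 and control arrays did not overlap. For *ATG8f* and *ATG8d* against *ATPC1* this had to follow, since the single genes already lay apart in opposite directions. Those pairs, and their permutation p below, thus add no separate evidence. The *ATPC1* values are shared by all 3 pairs. *SGR1* minus *ATG8f* was -1.76 to -1.10 in OXNAC33 and -1.02 to -0.61 in control arrays, so that the change of *ATG8f* exceeded that of *SGR1* by 0.66, again without overlap. *SGR1* minus *ATG8d* (difference of changes -0.49) and *ATG8f* minus *ATG8d* (0.17) overlapped between the groups. The exact permutation p was 0.1 for the 4 pairs without overlap, the smallest possible, and 0.15 after Benjamini-Hochberg adjustment over the 6 pairs. For *ATG8f* minus *ATG8d* the exact permutation p was 0.4, and the differences were -0.11 to 0.14 in OXNAC33 and -0.37 to 0.14 in control arrays.

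Finally, named genes were ranked by how closely their log2 signals followed each of the 4 over the 6 arrays, among 2408 candidates. These correlations are descriptions over 6 arrays that share a scaling and fall into 2 groups. Where one of the 4 genes differs between the groups, genes that differ in the same direction tend to score high. *SGR1* had 9 genes at a Pearson r above 0.9, the nearest being the vesicle coat gene Sec23A (r = 0.965), the splicing factor SR 1/9 (0.933) and the resistance protein PRF (0.931). *ATPC1* had 215, led by PBP1 (0.998), the cell wall expansin gene *VvEXPA1* (0.996) and an NADH-cytochrome b5 reductase (0.994). *VvEXPA1* and the reductase were also lower in OXNAC33, with changes of -4.24 and -1.14 (limma, adjusted p = 0.0361 and 0.0471). *ATG8f* had 118, led by a protein disulfide isomerase (0.994), a calcium-binding EF hand gene (0.990) and the ubiquitin-conjugating enzyme E2 H (0.986). *ATG8d* had 135, led by the protein kinase gene *CIPK3* (0.995), the carotenoid cleavage dioxygenase gene *VvCCD1.1* (0.992) and an aarF domain kinase (0.990), which rose by 1.25 (limma, adjusted p = 0.0445).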

How the data were processed

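The authors hybridized leaf RNA of 3 OXNAC33 and 3 control samples to a custom Agilent grapevine array in one colour (Cy3), read with Feature Extraction 10.5.1.1. The deposited intensity values are linear, and the column used had already been background-corrected by that software, with no scaling between arrays. The authors' own table of 23080 probes was a constant multiple of it on each array. Spot flags for background, saturation and outliers are deposited as other values of 0 or 1.

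From these, log2(processed intensity, the corrected column) minus the 75th percentile of the array was computed without outlier spots. A probe entered the test if either group had it well above background on its 3 arrays and each group kept 2 or more values (23907 probes, 1743 of them with only one such group). Groups came from the sample labels and were compared by limma 3.58.1 (lmFit, eBayes, two-sided; R 4.3.3), Benjamini-Hochberg adjusted over the 23907 probes, threshold 0.05. In simulated data for this comparison, over 23907 probes, 100% of 200 changed probes were recovered. The simulation gave every probe the same spread, and its planted changes were larger than those of the 4 genes. Whether changes of the size found for the 4 genes would be recovered was not tested.

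The 4 genes and the lists (52 pathway genes annotated in datasets of other experiments, and 6 genes named by the study on these arrays) were chosen with earlier results of these data known. The text names the 4 genes, *VviNAC33*, every list gene past the threshold, the highest and lowest of each list, and the 3 genes most correlated with each of the 4. Further genes of the ATG8 family, *ATG7*, *ATG18d*, chlD, the kinase subunit, other ATP synthase genes and the untested CF1 beta subunit were added after their values were seen. Other scalings, filters, blocks, array weights, the methods' t-test and leaving out each array were tried. Normexp on the median spot intensity and spike-in scaling were added after the data were seen. Of the array identifiers 0 matched the RefSeq gene table, so no coordinates or sequences are given.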

Additional observations from a re-analysis of the deposited data

How the results depend on the processing

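The number of probes called was sensitive to the settings. Against 1200 probes, 0 were called without a filter on dim probes, with the scan session as a block, with the replicate number as a block and with normexp on the median spot signals, where 6314, 6844, 5997 and 5188 probes had an unadjusted p under 0.05 (limma). There were 1806 calls with trend and robust, 2 with the methods' t-test after Benjamini-Hochberg and 5805 before it, and 0 to 2563 with one array left out, the 2563 without OXNAC33 replicate 2. Of the calls, 66.2% were lower in OXNAC33 in the main setting, 55.4% with median scaling and 35.7% of 987 with spike-in scaling, which moved the median of all probes to 0.19 (0.11 with median scaling, -0.23 with normexp).

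*ATPC1* kept its direction in all settings, but lost its call without a filter (-1.73, adjusted p = 0.0909), with the session block (-1.89, 0.0546), the methods' t-test after adjustment (-1.73, 0.125), normexp (-1.14, 0.140) and spike-in scaling (-1.53, 0.0887), and ranged from -2.0 to -1.5 with one array left out. *ATG8f* passed with a stricter filter (0.96, 0.0473), trend and robust (0.96, 0.0338), array weights (1.08, 0.0404) and the unadjusted t-test (0.96), ranged from 0.86 to 1.07 with one array left out, and was 0.75 and 1.22 within sessions 1 and 2. *ATG8d* passed with trend and robust (0.79, 0.0496) and the unadjusted t-test (0.79), ranged from 0.67 to 0.94 with one array left out, and was 0.48 within session 1. *SGR1* passed in none and ran from 0.24 to 0.50, or from 0.19 to 0.46 with one array left out, the lowest without OXNAC33 replicate 3. The 42 alternative values of the within-array differences kept their direction. Of the list medians under other settings, 132 stayed within the spread between replicates and 12 did not. That of chlorophyll synthesis turned positive with median scaling, spike-in scaling and without control replicate 3 (0.04). The cause of these shifts was not tested.

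The replicate numbers do not pair the arrays: same-numbered arrays deviated from their group means with r = 0.256, -0.222 and 0.181, and OXNAC33 replicate 3 went best with control replicate 2 (0.273). Pairs from the same scan session had r from 0.137 to 0.273, and pairs from different sessions from -0.41 to 0.0417. The cause of this was not tested. With the replicate block, the adjusted p was 0.105 for *ATPC1* (-1.73), 0.106 for *ATG8f* and 0.134 for *ATG8d* (limma). Normexp on mean spot signals was not run, since the files used hold none. Dim spots such as those of *ATPC1* and XANTHA-F limit the precision of their folds.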
